A study of Mus musculus with 24 samples.

Results

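Peaks of the transcription factor Nrf1 that were found in 3T3-L1 cells before adipogenic induction, and that had no counterpart in the peak list made after it, are described here. The day 0 Nrf1 list holds 2078 peaks. 1064 of them (51.2%) were selected on the deposited peak positions alone, because they overlapped no peak of the day 7 Nrf1 list by even 1 base, and are called day 0-only peaks. The other 1014 (48.8%) overlapped a day 7 peak and are called shared. The day 7 list holds 1629 peaks, of which 616 are absent from the day 0 list.

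The 3T3-L1 line is a clone of mouse embryo fibroblasts that forms fat cells when given hormones. Cells were used at passages 13 to 18. Day 7 cells had received isobutylmethylxanthine at 500 µM, rosiglitazone at 10 µM, dexamethasone at 1 µM and insulin at 10 µg/ml, with a change of medium at day 3. Day 0 cells were confluent and not induced. Nrf1 was precipitated with an Abcam antibody in 1 sample per day, without replicates. The day 7 Nrf1 sample is titled as LSD1 cells while its genotype label reads control, and the day 0 sample is a control sample by both. Day and cell label therefore cannot be told apart between the 2 Nrf1 lists. 4 LSD1 peak lists (1 sample each) and 12 RNA-seq libraries (3 each) cover cells labelled LSD1 overexpression at day 7 and at day 0, then control cells at day 7 and at day 0. Input samples were not used here.

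Nrf1, nuclear respiratory factor 1, is a DNA-binding factor that recognises a GC-rich palindrome near the start sites of many housekeeping genes, among them genes for mitochondrial proteins. LSD1, the product of Kdm1a, is an enzyme that removes methyl groups from histone H3 and works in repressor and activator complexes. Both factors have been linked to the oxidative programme of fat cells.

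The palindrome was rarer in day 0-only peaks than in shared ones. In the central 300 bases of each peak, the 8-base NRF1 core GCATGCGC, read on both strands, was present in 60 of 1064 day 0-only peaks (5.64%) and in 345 of 1014 shared peaks (34.0%). The full site, which is the core preceded by GC, was present in 17 day 0-only peaks (1.60%) and in 166 shared peaks (16.4%). The stretches of genome printed here were picked because they hold the full site, so that its surroundings can be read in both classes. They come from the RefSeq reference of mouse mm10, plus strand, in lower case, with the full NRF1 site in capitals. The first 3 are day 0-only promoter peaks, at chr3:79628841-79628940 (Etfdh, score 141.41), chr1:23922403-23922502 (Smap1, score 85.47) and chrX:70477181-70477244 (Tmem185a, score 76.77). The next 2 are the only day 0-only peaks away from a start site with a full site, at chr5:107167932-107168031 in an intron of Tgfbr3 and chr5:124964277-124964351 near Rflna. The last 2 are shared promoter peaks with the highest scores among those that hold the full site, at chr8:70353471-70353570 (Upf1, score 779.73) and chr8:70139204-70139303 (Rfxank, score 706.93).
Etfdh: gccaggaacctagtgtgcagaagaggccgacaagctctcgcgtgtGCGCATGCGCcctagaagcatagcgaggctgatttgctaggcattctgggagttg
Smap1: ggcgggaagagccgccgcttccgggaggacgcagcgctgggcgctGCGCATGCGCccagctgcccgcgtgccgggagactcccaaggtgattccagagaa
Tmem185a: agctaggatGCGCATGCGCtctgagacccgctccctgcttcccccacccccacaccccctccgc
Tgfbr3: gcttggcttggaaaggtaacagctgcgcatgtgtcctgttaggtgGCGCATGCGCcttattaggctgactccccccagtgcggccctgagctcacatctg
Rflna: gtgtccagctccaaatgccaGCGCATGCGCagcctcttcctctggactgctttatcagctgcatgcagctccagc
Upf1: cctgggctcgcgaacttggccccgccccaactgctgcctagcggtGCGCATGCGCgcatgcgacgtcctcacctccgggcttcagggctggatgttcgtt
Rfxank: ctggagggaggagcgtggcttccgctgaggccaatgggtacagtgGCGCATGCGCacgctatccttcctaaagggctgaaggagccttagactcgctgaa

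Day 0-only peaks split into a promoter group and a larger group away from start sites. 446 of 1064 (41.9%, Wilson 95% interval 39.0 to 44.9) lay at most 1 kb from a transcription start site (TSS) of the annotation. 72 (6.77%) lay in exons, 243 (22.8%) in introns and 303 (28.5%) between genes. Of the shared peaks, 953 (94.0%) lay within 1 kb of a TSS, and 556 of the 616 day 7-only peaks (90.3%) did. 452 day 0-only peaks (42.5%) were over 10 kb from any TSS, against 29 shared peaks (2.86%). The plot of peak place by class shows this split. Intervals treat peaks as independent and cover counting error only, and no test between classes was made because each list came from 1 sample.

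**Figure D1:**
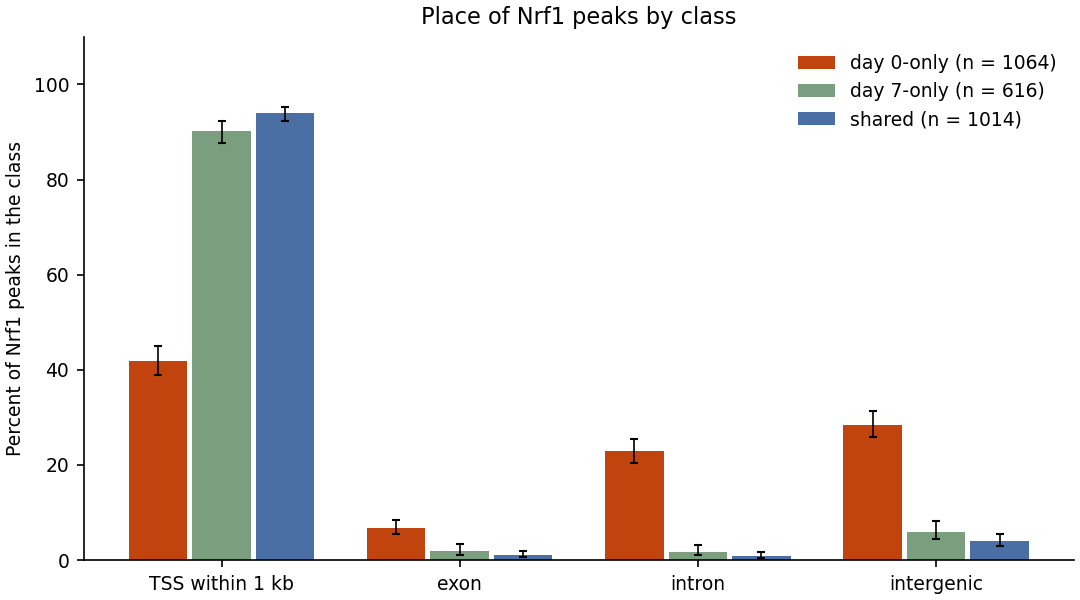
Percent of Nrf1 peaks (vertical axis) in each annotated place (horizontal axis) for day 0-only, day 7-only and shared peaks; bars are shares and error bars Wilson 95% intervals over peaks. Day 0-only peaks reach 41.9% at start sites, against 90.3% and 94.0% for the other classes.

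Day 0-only peaks away from a TSS had a lower GC content than those at promoters. Median GC content of the central 300 bases was 61.0% in the 446 day 0-only promoter peaks, 46.7% in the 618 day 0-only peaks away from a TSS (called distal) and 64.7% in shared peaks. The median over 32851 annotated promoters of the same length was 52.7%. The ratio of observed to expected CpG dinucleotides had a median of 0.804 in day 0-only promoter peaks, 0.184 in day 0-only distal peaks and 0.897 in shared peaks. Distal peaks of the other classes had a median GC content of 62.3% (shared) and 57.0% (day 7-only). Their median CpG ratios were 0.804 and 0.583. 71 distal day 0-only peaks (11.5%) were soft-masked as repeats over at least 50% of their length, against 10 of 60 day 7-only distal peaks (16.7%) and 1 of 61 shared distal peaks (1.64%).

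The score in the last column of the deposited lists, whose scale is not given in the sources used here, ranks peaks within a list. It bears on the choice of members, since a low peak is close to the lowest score listed (50 at day 0, 50.01 at day 7), and it is given as a description only. Day 0-only peaks had a median score of 58.6 and a range of 50 to 1459.2, and shared peaks had a median of 104.9. Promoter day 0-only peaks had a median of 64.1 and distal ones 55.7. 580 day 0-only peaks scored under 60, where they made up 83.7% of all day 0 peaks. At 100 to 150 they numbered 52 (16.9% of day 0 peaks in that range) and from 150 upward 8 (2.76%).

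Peaks of like score still differed in place and sequence. Among peaks scored 50 to 60, 30.7% of day 0-only and 93.8% of shared peaks were at a TSS. Among peaks scored 100 to 150, the shares were 75.0% and 95.3%. The NRF1 core was found in 3.97% of day 0-only and 24.8% of shared peaks at scores of 50 to 60, and in 15.4% and 35.9% at 100 to 150. With promoter peaks alone the core shares were 9.0% and 23.6% at 50 to 60, and 20.5% and 36.5% at 100 to 150. In each of the 5 score ranges plotted, the day 0-only class had the smaller share of all 3 features.

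**Figure D2:**
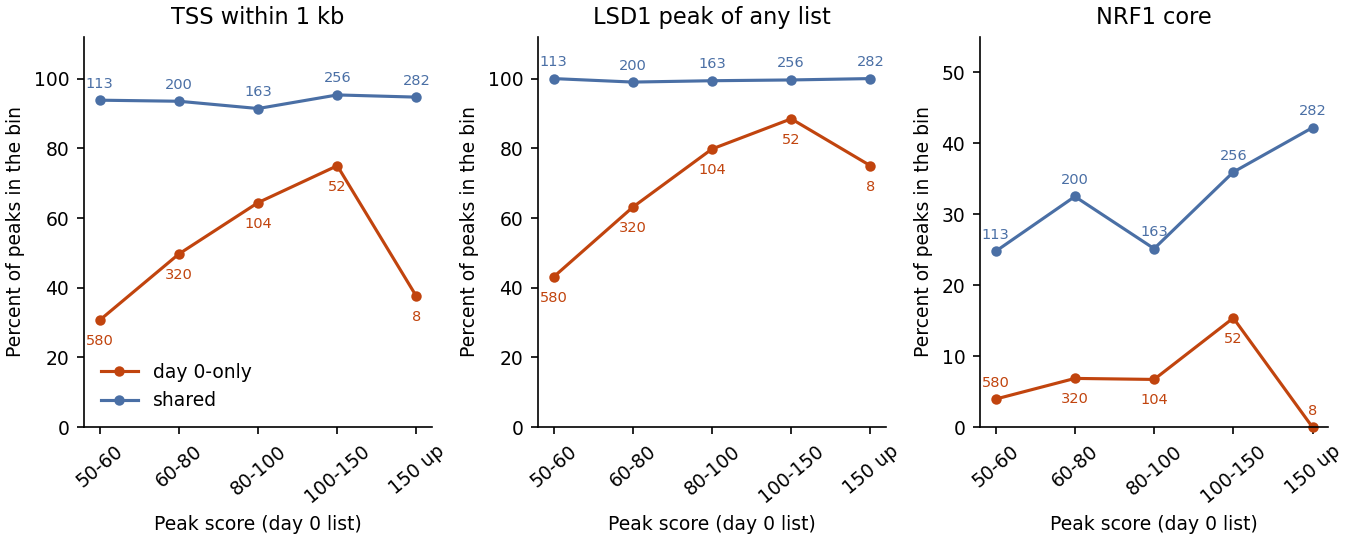
Percent of peaks in each range of day 0 score (horizontal axis) at a TSS, overlapping an LSD1 peak of any list, or holding the NRF1 core, for day 0-only and shared peaks; the number at each point is the count of peaks. The day 0-only line lies below the shared line in every panel, and its last point rests on 8 peaks.

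Few day 0-only peaks were near misses of the overlap rule. 6 of 1064 had an edge within 1 kb of a day 7 peak, the nearest being the promoter peak of the kinase gene Map4k3, at 14 bases (score 65.94). Those of Pnrc1, Snrk and Kif16b followed at 283, 326 and 351 bases. On the other side of the rule, 8 shared peaks were overlapped over less than 50% of their length. The least overlapped were at Sipa1l2 (168 bases, 20.1%) and Tdp1 (237 bases, 38.4%), and a shared peak whose nearest gene is Nrf1 itself was overlapped over 264 bases (50.2%). The median gap from a day 0-only peak to the nearest day 7 peak on its chromosome was 276 kb. 768 gaps exceeded 100 kb, and 2 peaks on chromosome Y had no day 7 peak on their chromosome.

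Day 0-only peaks were unevenly spread over chromosomes. Chromosome 2 carried 148 of them (13.9%), against 76 shared peaks (7.50%), and chromosome 8 carried 128 (12.0%), against 77 (7.59%). By chromosome, 66.1% of the day 0 peaks of chromosome 2 and 62.4% of those of chromosome 8 had no day 7 counterpart, while on chromosomes 9 and 10 the share was 34.0% each. Of the 12 runs with the most successive day 0-only peaks (9 to 14), 9 held 1 to 7 peaks of the day 7 list in between. The run with the most peaks, chr2:39417029-55553290, held 14, of which 2 were at promoters, and no day 7 peak. The widest of the 12, chr14:70351033-104522103, held 12 day 0-only and 4 day 7 peaks. A run of 10 at chr8:105851544-111034525 held 7 promoter peaks, including those of Cenpt and Aars, and no day 7 peak.

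The highest day 0-only scores were a mixed group. The highest of all, 1459.2, belonged to chr1:24611244-24616649, which lies 23807 bases from the start of Col19a1, and 4654 bases of it match the mouse mitochondrial genome at 99.9% identity. The next, 183.02, was a peak 10614 bases long at chr6:47661907-47672520 near F830010H11Rik. Then came the promoter of Mthfs, a folate enzyme gene (175.46), and an intron of Sdc4, which encodes the cell-surface proteoglycan syndecan 4 (174.39). A peak on chromosome Y followed (165.93), made up wholly of soft-masked repeats. The promoter of Arhgef18, a guanine nucleotide exchange factor, scored 162.11, a peak that starts at base 142652348 of chromosome 1 scored 160.49, and the promoter of Abl1, a tyrosine kinase gene, 152.12. An intergenic peak whose nearest gene is Map1lc3b, whose product coats autophagosomes, scored 147.26, and the promoter of Lmf1, a maturation factor for lipases, 143.41.

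Matches to the mitochondrial genome were seen in this class alone among the Nrf1 peaks searched. 6 day 0-only peaks matched it with BLAST at an E-value of 1e-10 or less, and none of the 1014 shared and none of the 1629 day 7 peaks did. Their scores were 1459.2, 126.89, 85.12, 82.23, 69.85 and 53.82, on chromosomes 1, 6, 12, 2, 5 and 4. All 6 overlapped a peak of the LSD1 list of LSD1-labelled cells at day 7, which is a list for another factor and another sample. Whether reads of mitochondrial DNA were placed on these copies was not tested. 100 bases at the centre of the 2 highest peaks are shown because these peaks lead the class without the NRF1 core there. The first is chr1:24613897-24613996 and the second chr6:47667164-47667263, plus strand, with no letters in capitals.
Col19a1, nearest gene: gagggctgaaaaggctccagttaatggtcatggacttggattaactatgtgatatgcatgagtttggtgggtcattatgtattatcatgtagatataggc
F830010H11Rik, nearest gene: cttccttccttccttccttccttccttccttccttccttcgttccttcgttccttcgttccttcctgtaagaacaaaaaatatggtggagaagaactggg

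At promoters, day 0-only peaks held the NRF1 core less often than shared peaks and more often than promoters in general. 51 of 446 (11.4%, interval 8.81 to 14.7) had it, against 320 of 953 shared promoter peaks (33.6%) and 891 of 32851 annotated promoters (2.71%). The full site was in 15 of them (3.36%), and in 0.971% of annotated promoters. The annotated promoters were not matched to the peaks in base composition, here or for the other motifs below. Their median GC content was 52.7% and their median CpG ratio 0.384, against 61.0% and 0.804 in day 0-only promoter peaks. The part of base composition in these shares was not tested. Of the 79 core matches on either strand in day 0-only promoter peaks, 56 (70.9%) lay within 100 bases of the peak centre. Their median distance was 70 bases. In shared promoter peaks 460 of 636 (72.3%) lay as near, at a median of 52.5 bases. A full site holds a core on each strand and so entered these counts once per strand. A search of the whole peak in place of its centre raised the count of day 0-only peaks with a core to 75 (7.05%).

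Among distal peaks the core was rare in the day 0-only class. 9 of 618 day 0-only distal peaks (1.46%) and 25 of 61 shared distal peaks (41.0%) had it. Over all mm10 windows of 300 bases, 28109 of 8824592 (0.319%) did. These matches describe letters in a window and do not show binding.

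Motifs of other factors were searched the same way, on both strands. The AP-1 site TGANTCA, bound by Fos and Jun proteins, was in 74 of 618 day 0-only distal peaks (12.0%, interval 9.65 to 14.8). It was in 24 of 446 day 0-only promoter peaks (5.38%), in 20 of 953 shared promoter peaks (2.10%), in 7.81% of annotated promoters and in 8.84% of genome windows. Of the other distal classes, 5 of 61 shared peaks (8.20%, interval 3.55 to 17.8) and 4 of 60 day 7-only peaks (6.67%, interval 2.62 to 15.9) held it, and both intervals include the day 0-only share. The ETS site CCGGAAG was in 79 day 0-only promoter peaks (17.7%) and 169 shared promoter peaks (17.7%), and in 8.86% of annotated promoters. The E2F site TTCCCGCC was in 16 day 0-only promoter peaks (3.59%) and 50 shared promoter peaks (5.25%), and in 2.19% of annotated promoters. The NFY site AGCCAATC was in 19 day 0-only promoter peaks (4.26%) and 33 shared promoter peaks (3.46%), and in 3.84% of annotated promoters. Over all day 0-only peaks, the C/EBP site TTGCGCAA was in 6 (0.564%), the YY1 site in 11 (1.03%) and the long CTCF site in none. The plot of motif shares places the promoter and distal members beside shared promoter peaks.

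**Figure D3:**
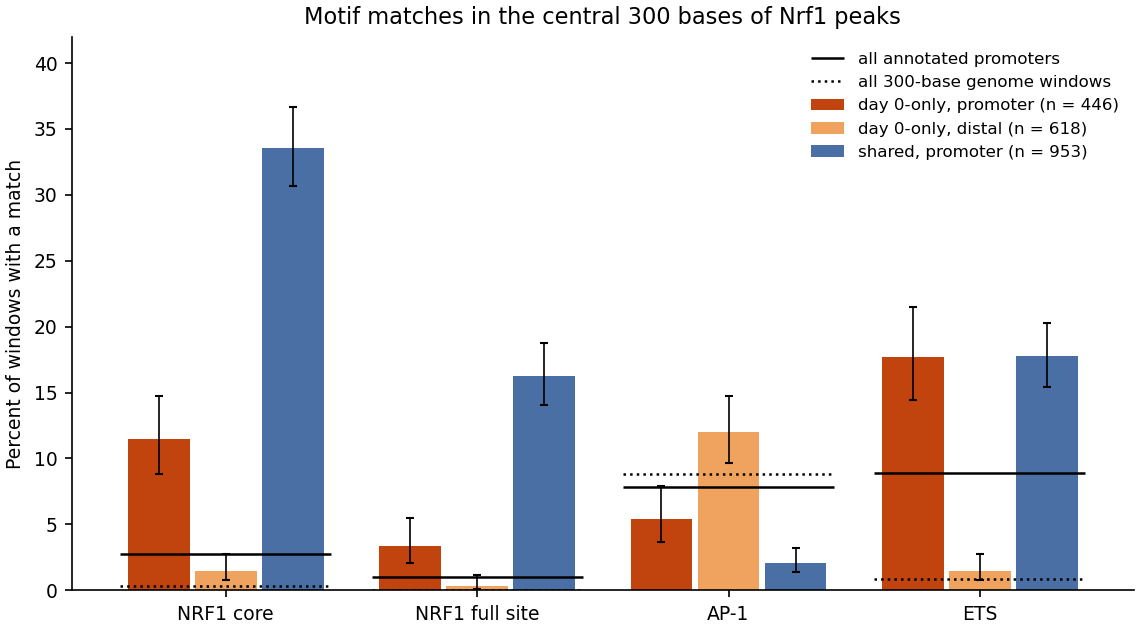
Percent of windows of 300 bases with a match (vertical axis) for 4 motifs in day 0-only promoter, day 0-only distal and shared promoter peaks; bars are shares, error bars Wilson 95% intervals, and the horizontal marks the shares in annotated promoters and in genome windows. The NRF1 core reaches 11.4% in day 0-only promoter peaks and 33.6% in shared ones, while AP-1 reaches 12.0% in distal day 0-only peaks.

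The 2 highest distal day 0-only peaks with an AP-1 site illustrate sequence without an NRF1 core. They lie at chr10:101390625-101390666, whose nearest gene is Mgat4c (score 94.15), and chr8:92130346-92130405, nearest to Crnde (score 93.86), on the plus strand of mm10, with the AP-1 match in capitals.
Mgat4c: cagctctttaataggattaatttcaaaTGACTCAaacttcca
Crnde: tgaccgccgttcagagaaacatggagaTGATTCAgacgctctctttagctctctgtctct

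10 day 0-only peaks lay within 1 kb of a tRNA gene, against 14 shared peaks. The highest was an intergenic peak near Zfp184 (138.79), beside a methionine tRNA gene, followed by one near Pllp (124.05) beside leucine tRNA genes. The promoters of Knl1, Ppp6r3, Ndufs7, Ilf2 and Sacm1l were among the 10.

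LSD1 peaks covered nearly every day 0-only promoter peak and few distal ones. Of the 446 promoter peaks, 428 (96.0%) overlapped a peak of LSD1-labelled cells at day 7 and 382 (85.7%) one at day 0. 343 (76.9%) overlapped a peak of control cells at day 7 and 147 (33.0%) one at day 0. The same order of lists held for shared promoter peaks, at 99.5%, 89.6%, 83.4% and 33.7%. The lists themselves differ in size in that order, with 27221, 13997, 8303 and 3024 peaks, so the differences between lists move with their size.

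Of the 618 distal day 0-only peaks, 131 (21.2%) overlapped an LSD1 peak of LSD1-labelled cells at day 7 and 68 (11.0%) one at day 0. 29 (4.69%) overlapped one of control cells at day 7 and 10 (1.62%) one at day 0. The 61 shared distal peaks stood at 95.1%, 77.0%, 55.7% and 19.7%. Over all 4 lists, 434 promoter (97.3%) and 153 distal (24.8%) day 0-only peaks met an LSD1 peak. Of the genes tested for expression, 98.4% of the 496 at day 0-only promoter peaks had an LSD1 peak of LSD1-labelled cells at day 7 within 1 kb of their TSS, as had 80.9% of the 13083 tested genes with an annotated TSS.

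**Figure D4:**
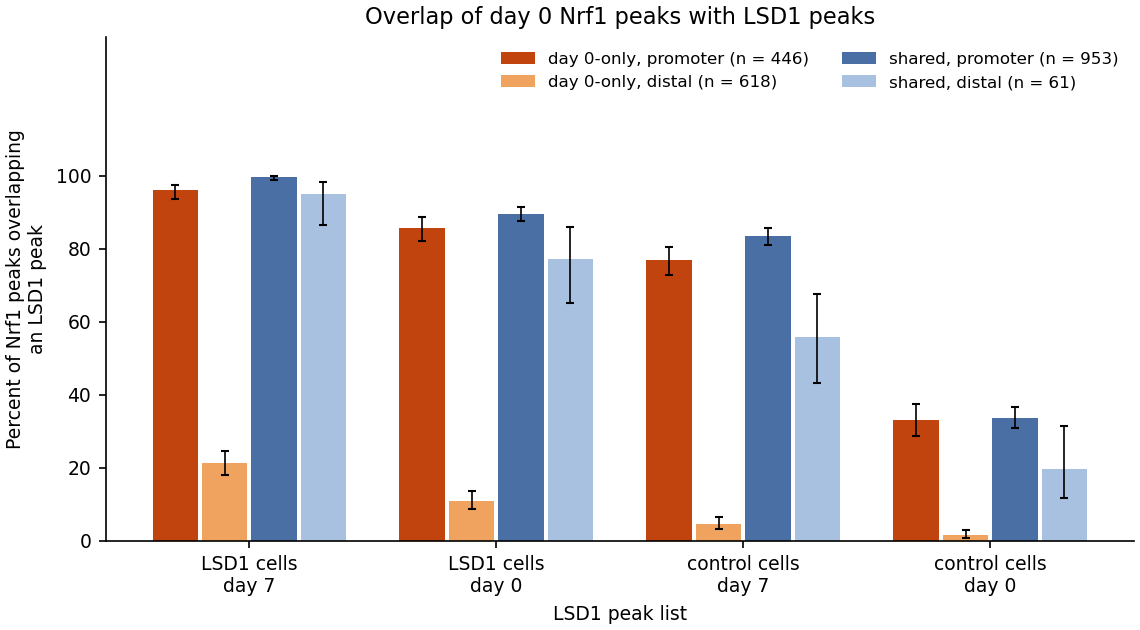
Percent of day 0 Nrf1 peaks overlapping an LSD1 peak (vertical axis) for each LSD1 list (horizontal axis), split into day 0-only and shared, promoter and distal; bars are shares and error bars Wilson 95% intervals. Day 0-only promoter peaks follow shared promoter peaks closely, and day 0-only distal peaks stay at 21.2% or less.

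Expression in the 12 libraries is a measure that the choice of peaks did not use. Total counts were 27512273 to 37565527 per library. LSD1-labelled day 0 replicate 1 stood apart from its group, with a mean correlation of log values of 0.956 to the other two, against 0.974 and 0.975 for those and at least 0.989 in the other groups, so values without it are given. Summed adipocyte markers were 24422 to 31905 CPM in LSD1-labelled cells at day 7, against 460 to 580 CPM at day 0, and 9583 to 11300 CPM in control cells at day 7, against 605 to 781 CPM at day 0. Summed fibroblast markers were 1236 to 1272 CPM in LSD1-labelled cells at day 7, against 13814 to 18658 CPM at day 0, and 8146 to 8505 CPM in control cells at day 7, against 33284 to 35905 CPM at day 0. Macrophage markers summed to 5.32 CPM or less and endothelial markers to 3.85 CPM or less in every library. Muscle markers summed to 33.5 to 44.1 CPM in LSD1-labelled cells at day 7 and to 4.16 to 17.6 CPM elsewhere. In bulk RNA, fewer cells of a type and less RNA per cell cannot be told apart, and the part of cell composition in the changes below was not tested.

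The Nrf1 transcript itself was lower at day 7 in control cells by 0.39 on the log2 scale. Nrf1 had 32.2, 34.1 and 35.6 CPM in LSD1-labelled cells at day 7, against 32.0, 46.8 and 47.5 CPM at day 0. In control cells it had 27.7, 29.7 and 27.3 CPM at day 7, against 37.9, 35.5 and 37.7 CPM at day 0. The control libraries of the 2 days did not overlap, while day 0 replicate 1 of the labelled cells fell below all 3 of their day 7 libraries. With edgeR's quasi-likelihood test and Benjamini-Hochberg adjustment, the log2 fold change was -0.31 (SE 0.14, adjusted p = 0.0633) in labelled cells and -0.39 (SE 0.14, adjusted p = 0.0347) in control cells. Without LSD1-labelled day 0 replicate 1 the change in labelled cells was -0.47 (adjusted p = 0.00023). The call in control cells was lost, at an adjusted p of up to 0.0973, when any 1 of 7 of the libraries was left out.

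Kdm1a, the gene named by the cell label, had 54.3, 55.4 and 54.4 CPM in LSD1-labelled cells at day 7, against 89.4, 104 and 99.0 CPM at day 0. Control cells had 66.1, 67.6 and 74.5 CPM at day 7, against 79.0, 86.3 and 84.1 CPM at day 0. The day 7 libraries labelled LSD1 overexpression thus lay below the control libraries of that day, which goes against the label. The day 0 libraries so labelled lay above the control libraries of that day, which goes with it. Directions below are those of libraries so labelled. Kdm1a fell in labelled cells (log2 -0.83, SE 0.10, adjusted p = 5.26e-06) and by 0.26 on the log2 scale in control cells (adjusted p = 0.0392), a call lost without any 1 of 7 libraries (adjusted p up to 0.133).

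Genes at day 0-only promoter peaks moved about as often as other genes, and in both directions. 542 genes had a TSS within 1 kb of such a peak, 511 of these were in the count tables and 496 passed the filter on low counts. 97 of the 446 peaks (21.7%) had several genes within 1 kb, so some genes named below share a peak with a neighbour. Cdca3 shares its peak with Usp5, and Cenpn with Cmc2. In LSD1-labelled cells at day 7 against day 0, 191 were higher (38.5%, against 32.6% of all 13356 genes tested) and 159 were lower (32.1%, against 37.2%). In control cells, 125 were higher (25.2%, against 23.7%) and 118 were lower (23.8%, against 24.6%). The median log2 fold change of the 496 genes was 0.02 in labelled and -0.00 in control cells, and that of all genes was -0.07 and -0.01. 89 of the 496 were higher with both labels, 66 were lower with both and 91 were called with neither. Matching counts over all genes tested are not given here, so these cannot be set against a background share.

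The interaction, which subtracts the change in control cells from the change in labelled cells, was called for 265 of the 496 genes. 152 were positive (30.6%, against 23.9% of all genes) and 113 negative (22.8%, against 28.1%), with a median of 0.03 (all genes, -0.06). The interaction was not called for 231 of the 496 genes, beside 6423 of all 13356 tested. Genes at shared promoter peaks stood at 33.3% positive and 14.3% negative of 1096, and genes at day 7-only peaks at 29.6% and 16.9% of 632. Without LSD1-labelled day 0 replicate 1, 382 genes were called in labelled cells (203 higher, 179 lower), 319 in control cells (161 higher, 158 lower) and 336 for the interaction. Shares over all genes for this refit are not given here. The median level in control cells at day 0 was 13.9 RPKM (counts scaled to depth and transcript length) for genes at day 0-only peaks, 15.9 for genes at shared peaks and 9.27 for all genes tested.

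Genes ranked by rise or fall were picked among called genes with a mean of at least 10 CPM and no overlap between days. Lack of overlap in the ranked comparison was thus fixed by the choice and is not a result. The 8 largest rises in LSD1-labelled cells were at Adig, Pcx, Angptl4, Hsdl2, H2bc4, Snrk, Hibch and Pfkl. Pcx, pyruvate carboxylase, had 1612, 1767 and 1964 CPM at day 7, against 84.2, 59.4 and 60.4 CPM at day 0 (log2 4.71, SE 0.17, adjusted p = 1.27e-10). Angptl4, a secreted inhibitor of lipoprotein lipase, had 969, 998 and 1059 CPM at day 7, against 29.6, 51.0 and 63.5 CPM at day 0 (log2 4.39, SE 0.23, adjusted p = 2.89e-09). The promoter peaks of Pcx and Angptl4 scored 50.36 and 73.56. Hsdl2, a dehydrogenase-like peroxisomal protein, rose by 3.86 on the log2 scale, and Hibch, an enzyme of valine breakdown, by 3.29. Snrk, a kinase related to AMPK, had 266, 288 and 292 CPM at day 7, against 28.7, 29.4 and 26.4 CPM at day 0 (log2 3.32). Pfkl, a phosphofructokinase of glycolysis, rose by 3.09, and H2bc4, a histone gene with near-identical copies and so of uncertain level, by 3.47.

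Adig, adipogenin, was close to absent at day 0. It had 125, 121 and 137 CPM in LSD1-labelled cells at day 7, against 0.0409, 0 and 0 CPM at day 0. In control cells it had 5.08, 4.82 and 6.24 CPM at day 7, against 0, 0 and 0.159 CPM at day 0. Over the group, the labelled cells gave 7257 counts at day 7 and 1 count at day 0, a ratio of 8586 per total count (95% counting interval 1541 to 339184), and the control cells 368 and 4 counts, a ratio of 113 (43.9 to 419). The peak at its promoter scored 50.42, near the lowest score of the list.

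The 8 largest falls in LSD1-labelled cells were at Diaph3, Ube2c, Ckap2, Slc9a5, Il17rd, Knl1, Dnm1 and Cdca3. Ube2c, the ubiquitin-conjugating enzyme of the anaphase-promoting complex, had 2.26, 1.34 and 1.86 CPM at day 7, against 140.2, 62.7 and 62.9 CPM at day 0 (log2 -5.60, SE 0.35, adjusted p = 1.36e-08). Diaph3, a formin that builds actin filaments, had 0.386, 0.310 and 0.311 CPM at day 7, against 16.4, 20.3 and 16.3 CPM at day 0 (log2 -5.70, SE 0.20, adjusted p = 8.75e-11). That neither gene's days overlapped was fixed by the choice. Ckap2, a spindle-associated protein, fell by 5.34 on the log2 scale, and Knl1, a kinetochore scaffold, by 4.08. Slc9a5, a sodium-proton exchanger whose exons overlap Plekhg4, fell by 4.81, Il17rd, an inhibitor of growth factor signalling, by 4.31, and Dnm1, dynamin 1, by 3.23. Cdca3, a trigger of mitotic entry, fell by 3.11, and by 1.93 without LSD1-labelled day 0 replicate 1, in which it had 40.4 CPM, against 7.51 and 9.24 CPM in the other two. Without that library Ube2c, Ckap2 and Diaph3 fell by 5.11, 4.83 and 5.75.

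The largest rises in control cells after Adig were at Pcx, Bcar3, Hibch and Pfkl. Genes ranked here were picked among those whose days did not overlap in control cells. Pcx had 566, 462 and 603 CPM at day 7, against 52.5, 58.6 and 52.2 CPM at day 0 (log2 3.32, SE 0.16, adjusted p = 9.46e-09), with no overlap between the days. Hibch rose by 2.23 on the log2 scale, and Pfkl by 1.92. The rises of Pcx, Hibch and Pfkl were larger in labelled cells, with interactions of 1.39, 1.06 and 1.18 (edgeR, adjusted p = 0.000151, 0.00043 and 0.0105). Bcar3, an adaptor of integrin signalling, had 46.2, 39.4 and 36.8 CPM at day 7, against 7.42, 7.49 and 7.66 CPM at day 0 (log2 2.44). Fam214a rose to 104, 93.5 and 103 CPM at day 7, against 35.9, 23.3 and 27.2 CPM at day 0. Tigd2, a gene derived from a transposon, rose by 1.73 on the log2 scale, and neither gene's days overlapped.

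Malat1, a nuclear long noncoding RNA, moved in opposite directions with the 2 labels. It had 456, 307 and 159 CPM in LSD1-labelled cells at day 7, against 1026, 854 and 762 CPM at day 0 (log2 -1.52, SE 0.40, adjusted p = 0.00441). In control cells it had 1422, 1279.9 and 1597 CPM at day 7, against 754, 238 and 321 CPM at day 0 (log2 1.71, SE 0.40, adjusted p = 0.00373). The days did not overlap with either label, in control cells by the choice of genes. The interaction was -3.23 (edgeR, SE 0.57, adjusted p = 0.000441). Without control day 0 replicate 1 the change in control cells was 2.36 and the interaction -3.87. Reads of the overlapping Mascrna cannot be separated from it in these counts.

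The largest falls in control cells were at Actg1 (log2 -2.45), Il17rd, Specc1 (log2 -1.81) and Diaph3. Il17rd had 11.6, 10.4 and 12.2 CPM at day 7, against 47.1, 43.1 and 46.9 CPM at day 0, and Diaph3 had 8.95, 9.36 and 8.32 CPM at day 7, against 31.1, 28.2 and 33.4 CPM at day 0. Actg1, gamma actin, has near-identical copies, so its value is uncertain, and its peak also covers the start of 0610009L18Rik. Prkca, protein kinase C alpha, had 39.7, 36.1 and 37.2 CPM at day 7, against 106, 98.5 and 117 CPM at day 0 (log2 -1.51, SE 0.13, adjusted p = 9.83e-07), and in labelled cells 12.4, 15.1 and 12.1 CPM at day 7, against 87.4, 84.6 and 70.0 CPM at day 0 (log2 -2.61). The days were apart with either label, in control cells by the choice of genes. St3gal1, a sialyltransferase, Dok1, an adaptor of tyrosine kinases, and Zfpm1, a cofactor of GATA factors, fell by 1.49, 1.48 and 1.36.

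**Figure D5:**
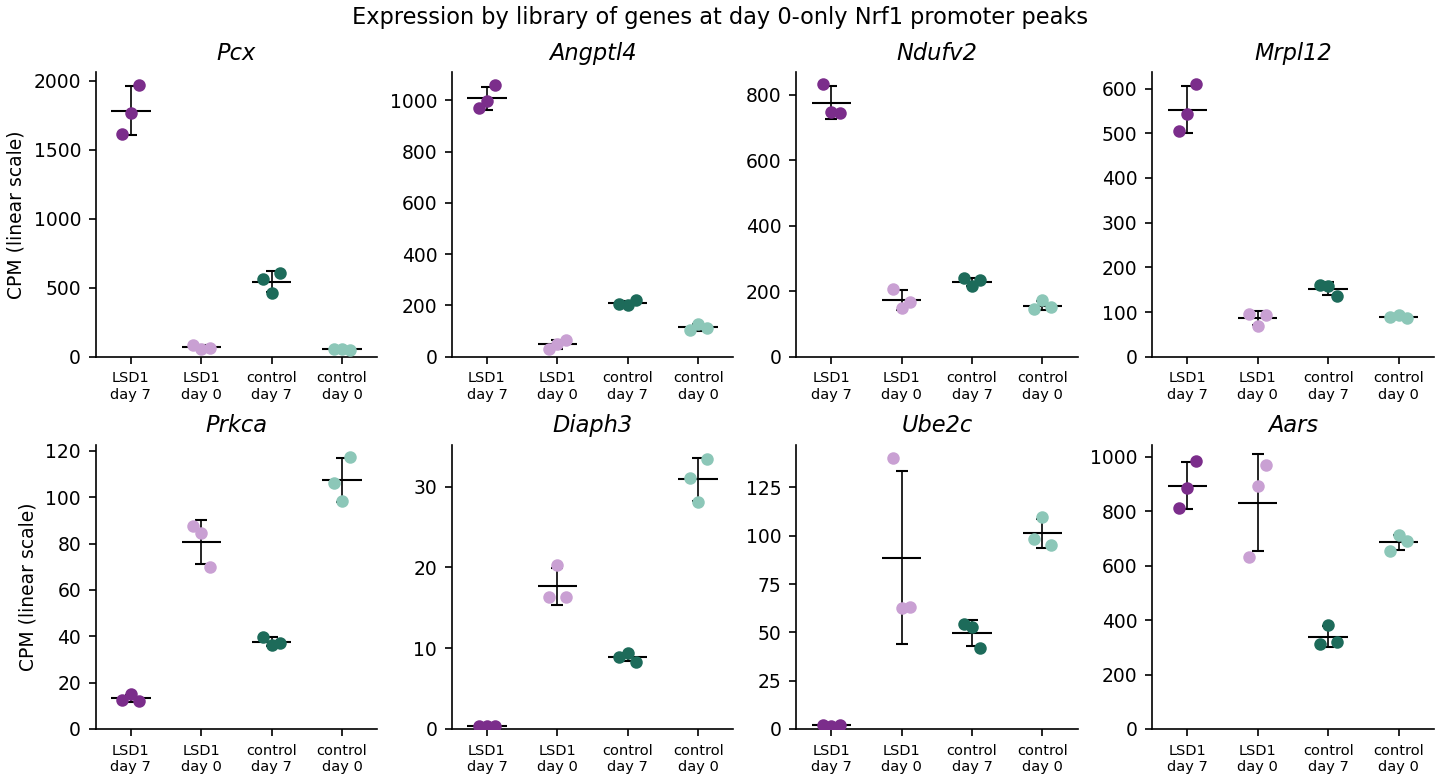
CPM per library (vertical axis, linear) of 8 genes at day 0-only promoter peaks in the 4 RNA-seq groups (horizontal axis, 3 libraries each); points are libraries, the bar is the mean and the whisker the SD. Pcx, Angptl4, Ndufv2 and Mrpl12 are highest in LSD1-labelled cells at day 7, Prkca, Diaph3 and Ube2c are lowest there, and Aars is lowest in control cells at day 7.

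Genes of the respiratory chain and the mitochondrial ribosome belong to a known target group of Nrf1. 6 of the 88 oxidative phosphorylation genes tested had a day 0-only promoter peak, beside 496 of all 13356 genes tested. They were Atp5k, Ndufs4, Ndufs7, Ndufv2, Uqcr11 and Uqcrb. All 6 rose in LSD1-labelled cells (median log2 2.06), beside 86 of 88 in the whole list (median 1.92), and 4 rose and none fell in control cells (median 0.68), beside 45 that rose and 4 that fell in the list (median 0.55). Ndufv2, a subunit of complex I, had 835, 748 and 746 CPM in labelled cells at day 7, against 208, 147 and 168 CPM at day 0, and 239, 215 and 233 CPM in control cells at day 7, against 145, 173 and 150.4 CPM at day 0. No library of day 7 fell to the level of day 0 with either label (edgeR, log2 2.15 in labelled and 0.55 in control cells, adjusted p = 1.23e-08 and 0.00331). Exons of Ankrd12 overlap this gene. Genes named from this and the following lists had the smallest p of their list in control cells. Separation of the days in control cells was thus favoured by the choice and is not a result. Uqcrb, a subunit of complex III, rose by 2.37 and 0.81, and Ndufs4, of complex I, by 1.74 and 1.03.

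Of 6 mitochondrial ribosome genes at these peaks, 4 rose and none fell in LSD1-labelled cells (median 0.94), beside 70 that rose and 1 that fell of 78 in the list (median 1.08). In control cells 4 rose and none fell (median 0.65), beside 33 and 4 (median 0.30). Mrpl12 had 506, 543 and 609 CPM in labelled cells at day 7, against 96.6, 69.7 and 94.4 CPM at day 0 (log2 2.67), and 161, 159 and 135 CPM in control cells at day 7, against 87.9, 93.0 and 86.3 CPM at day 0 (log2 0.77). The days did not overlap with either label, in control cells favoured by the choice of genes. Mrpl15 rose by 2.11 and 0.99, and Mrps18c by 0.81 and 1.03. Tfb1m, a methyltransferase of mitochondrial ribosomal RNA whose exons overlap Tiam2, rose by 1.95 and 0.77. Pam16, of the import motor, fell by 1.22 in labelled cells (adjusted p = 0.0161), a call lost without labelled day 0 replicate 2 or day 7 replicate 3 (adjusted p = 0.0505 and 0.0658), and its exons overlap Glis2.

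Cell cycle genes fell more often than they rose, at day 0-only peaks and in the whole list alike. Of Ccne1, Cenpi, Cenpn, Cenpt, Cenpu, Orc6 and Pola1, 5 fell and 1 rose in LSD1-labelled cells (median -1.18), beside 57 that fell and 14 that rose of 89 in the list (median -1.19). In control cells 3 of the 7 fell and none rose (median -0.63), beside 39 and 7 (median -0.52). Pola1, the catalytic subunit of DNA polymerase alpha, had 4.08, 4.70 and 2.85 CPM in labelled cells at day 7, against 35.8, 27.4 and 26.7 CPM at day 0, and 24.5, 24.0 and 29.8 CPM in control cells at day 7, against 49.3, 54.9 and 49.5 CPM at day 0. Its days stayed apart with either label (log2 -2.95 and -0.97), in control cells favoured by the choice of genes. Cenpt and Cenpn, both of the inner kinetochore, fell by 2.72 and 1.18 in labelled and by 0.90 and 0.83 in control cells.

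The 5 tRNA synthetase genes at day 0-only peaks did not share a direction. Of Aars, Ears2, Mars2, Qars and Vars, 2 rose and none fell in LSD1-labelled cells (median 0.17). In the list, 19 of 35 rose and 3 fell there (median 0.54). In control cells 1 rose and 2 fell (median -0.13), beside 9 and 9 (median -0.07). Aars, the cytosolic alanine enzyme, had 812, 884 and 984 CPM in labelled cells at day 7, against 631, 893 and 971 CPM at day 0, and 313, 383 and 318 CPM in control cells at day 7, against 654, 711 and 689.9 CPM at day 0. The days overlapped in labelled cells (edgeR, log2 0.10, adjusted p = 0.555). They were apart in control cells (log2 -1.02, adjusted p = 0.000146), which the choice of genes favoured. Vars, the valine enzyme, showed -0.34 in labelled cells (adjusted p = 0.0695), which passed at -0.48 without labelled day 0 replicate 1 (adjusted p = 0.00115), and it fell by 1.26 in control cells. Mars2, the mitochondrial methionine enzyme, whose promoter peak was among the higher ones (140.26), rose by 1.04 and 0.84.

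Of 6 cytosolic ribosome genes, none rose and 2 fell in LSD1-labelled cells, beside 5 and 29 of 81 in the list, and 2 rose and 1 fell in control cells, beside 16 and 22. These genes have near-identical copies elsewhere, and the calls of Rpl22, Rpl27a and Rpl36 were each lost without some single library (adjusted p up to 0.135). Smaller lists gave 1 to 3 genes each. Utp23, of ribosome biogenesis, rose by 0.51 in control cells (adjusted p = 0.0125), a call lost without control day 7 replicate 2. The other member of that list, Nop14, showed -0.38 in labelled cells (adjusted p = 0.191) and -0.69 without labelled day 0 replicate 1 (adjusted p = 1.52e-06). Psmc5, of the proteasome, fell by 0.42 in control cells (adjusted p = 0.0133), lost without control day 0 replicate 2 or day 7 replicate 1. Kmt2d, a histone methyltransferase, fell by 1.49 in labelled cells. Fance, of the Fanconi anaemia repair pathway, rose by 0.95 in labelled cells. Snrnp35, of the spliceosome, rose by 0.70 in control cells. Exons of other genes overlap those of Utp23, Nop14, Snrnp35, Rpl22 and Cenpt, so reads cannot be assigned to these alone. No gene of the adipocyte, preadipocyte and fibroblast, or interferon lists had a day 0-only promoter peak. None had a shared or day 7-only promoter peak either. The lists held 27, 17 and 23 tested genes. Of all 13356 genes tested, 496 had a day 0-only promoter peak.

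Genes whose day 0-only promoter peak held the NRF1 core were compared with those whose peak did not, as counts without a test. Of 58 with the core, 14 were higher (24.1%) and 25 lower (43.1%) in LSD1-labelled cells, and 11 and 13 in control cells. Of the 18 among them with the full site, 5 were higher (27.8%) and 6 lower (33.3%) in labelled cells. Of 438 without the core, 177 were higher (40.4%) and 134 lower (30.6%) in labelled cells, and 114 and 105 in control cells. Of all genes tested, 32.6% were higher and 37.2% lower in labelled cells, and 23.7% and 24.6% in control cells. Among the genes with the full site shown above, Etfdh, which passes electrons from fat and amino acid breakdown to ubiquinone, had 380.1, 329 and 308 CPM in labelled cells at day 7, against 123, 49.7 and 52.9 CPM at day 0, and 211, 199 and 209 CPM in control cells at day 7, against 82.4, 90.8 and 88.3 CPM at day 0. No day 7 library came near the day 0 range with either label (log2 2.17 and 1.24, adjusted p = 1.18e-05 and 0.00205). Smap1, a regulator of membrane traffic, rose by 0.35 in labelled cells and fell by 0.33 in control cells. Zfp658, a zinc finger gene with the full site, had 0.772, 0.723 and 0.932 CPM in labelled cells at day 7, against 9.99, 9.23 and 8.73 CPM at day 0 (log2 -3.52), while control cells showed -0.13 (adjusted p = 0.465).

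Day 0-only peaks in introns lay in 231 genes, of which 189 were tested. This set was drawn up after the data had been seen. In LSD1-labelled cells 40 of the host genes were higher (21.2%, against 32.6% of all genes tested) and 92 lower (48.7%, against 37.2%). In control cells 33 were higher (17.5%, against 23.7%) and 65 lower (34.4%, against 24.6%). Such hosts are long, and 137 of the tested ones span 50 kb or more. Of these, 73 (53.3%) were lower in labelled and 55 (40.1%) in control cells. Of all 3306 tested genes of that span, 40.8% and 28.3% were lower. 25 (18.2%) of the long hosts were higher in labelled and 21 (15.3%) in control cells, beside 28.3% and 21.7% of genes of that span. Sdc4, with the highest intronic score, had 244, 249.9 and 247 CPM in labelled cells at day 7, against 168, 131 and 125 CPM at day 0 (log2 0.80), and 160.2, 164 and 156 CPM in control cells at day 7, against 107, 131 and 120.4 CPM at day 0 (log2 0.42). Its days did not overlap with either label. Tgfbr3, the co-receptor of TGF-beta with a full NRF1 site in its intron, fell by 1.21 in labelled cells and rose by 0.45 in control cells (adjusted p = 2.84e-05 and 0.0415, interaction -1.66).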

How the data were processed

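The series holds 24 samples, of which 12 RNA-seq libraries (4 groups of 3) and 6 ChIP-seq peak lists (1 sample each) were used. The deposited peak lists give a score per peak, and the deposited RNA-seq files give raw counts per RefSeq transcript. MACS 1.41, Bowtie2, TopHat2 2, HOMER, edgeR, DESeq 1.8.3 and the mm10 build are named in the submitters' processing notes without roles. ChIP depth, the input used and the cut-off are not given in the sources used here.

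Peaks were intersected with a minimum overlap of 1 base and placed by the RefSeq annotation of the same build (GRCm38.p6). Motifs were searched in the central 300 bases, and in windows running from 250 bases before to 50 after each annotated start. Shares carry Wilson intervals at the 95% level. Peaks were compared with the mitochondrial genome by blastn 2.17.0.

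For each gene, the transcript with the largest mean count stood for it. 1200 unnamed transcripts, with 0.896% of counts, were left out of tests. edgeR 4.0.16 in R 4.3.3 fitted 4 group means (filterByExpr, TMM, robust quasi-likelihood) with two-sided tests, Benjamini-Hochberg adjustment over 13356 genes and a threshold of 0.05. CPM is scaled with TMM library sizes. On simulated counts with 12784 genes, changes were made in control cells at day 7 only. The fit recovered 79 of 100 genes changed by 1 and 97 of 100 changed by 2 on the log2 scale. It called 3 of 12584 unchanged genes. Far fewer genes changed there than were called in the data, so these rates need not hold for the data, for labelled cells or for the interaction. Replicates are labelled biological. Counts are not known to be stranded, so overlapping genes share reads, and intervals cover counting error only.

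The members and gene lists were chosen with earlier results of these data known. Genes were named by rule: the 8 largest rises and falls of each day comparison and the 5 largest interactions of each sign. These were taken among called genes with a mean of at least 10 CPM. Up to 3 genes per list were added, those with the smallest p in control cells, and Nrf1 and Kdm1a. Rises and falls also needed no overlap between the groups compared. Some genes that the rule names are not reported here. Genes given because of the NRF1 site or an intronic peak, apart from the list members among them, were chosen after their values were seen. DESeq2 1.42.0, other filters, scalings and peak rules, and leaving out each library were tried as alternatives.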

Additional observations from a re-analysis of the deposited data

Results flagged for a closer look

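The change with day differed between the LSD1-labelled and the control cells for 265 of the 496 genes at day 0-only promoter peaks, by edgeR's test of the interaction (change in labelled cells minus change in control cells). 152 were positive (30.6%, against 23.9% of all genes tested) and 113 negative (22.8%, against 28.1%). The interaction was not called for 231 of the 496, beside 6423 of all 13356 genes tested, so the share called was near that of all genes. It was more negative in labelled cells at Ckap2 (-4.67), Ube2c (-4.58), Slc9a5 (-4.37), Diaph3 (-3.90) and Knl1 (-3.69), all on the log2 scale. Without LSD1-labelled day 0 replicate 1 these were -4.17, -4.08, -4.32, -3.95 and -3.90. It was more positive at Adig (6.27), Angptl4 (3.52), H2bc4 (3.47), Snrk (2.75) and Ndufs7 (2.53).

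The Adig value rests on day 0 counts near 0 and depends on the prior count of the fit. Without control day 0 replicate 3 it was 2.83 and was not called (adjusted p = 0.87). H2bc4 has near-identical copies, and exons of Slc9a5 and Ndufs7 overlap those of Plekhg4 and of a tRNA gene.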

How the results depend on the processing

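Keeping day 0 peaks with a score of at least 100 left 60 day 0-only peaks, of which 70% lay at a TSS, 13.3% had the NRF1 core and 86.7% met an LSD1 peak. Their genes gave 33 calls in LSD1-labelled cells, 22 in control cells and 24 for the interaction, of 52 tested; fewer genes enter this count by construction. A TSS window of 5 kb raised the promoter share to 51.2%. Leaving out 1 library gave 322 to 382 calls in labelled cells, 198 to 319 in control cells and 248 to 336 for the interaction, and 86 to 97 and 58 to 82 lower intronic host genes in labelled and control cells. With size factors of DESeq2 in edgeR, calls in control cells were 117 higher and 125 lower. Replicate numbers do not pair the libraries: correlations of same-numbered deviations were -0.078, 0.114 and -0.153 in labelled and 0.076, 0.004 and -0.046 in control cells. The replicate block gave 335, 222 and 258 calls for labelled cells, control cells and the interaction, and 90 and 61 lower host genes. Other overlap rules, no filter on low counts and DESeq2's test kept each of these counts within 1.5 times. Chosen after seeing the data, the restriction to 489 genes with no day 7 Nrf1 peak within 1 kb gave 347, 237 and 260 calls. In the fit to all 12 libraries, 4031, 6909 and 6423 of 13356 genes were not called for labelled cells, control cells and the interaction. Shares over all genes for the refits are not given here, so their counts cannot be set against a background share.

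Over 56 named genes and 2688 alternative values, 2574 kept direction and call, 48 lost a call, 47 gained one and 19 changed sign. All sign changes were at values not called. H2bc4 in control cells was at -0.0162 with DESeq2's test and -0.0161 with its size factors. Without the filter on low counts, Ndufs7 in control cells was at 0.0114 and the Lig3 interaction at -0.0213. The other sign changes came from leaving out 1 library. In labelled cells this gave -0.0607 to 0.23 at Aars, -0.138 to 0.254 at Prpf4b, -0.0901 to 0.209 at Rpl22 and -0.0844 to 0.354 at Rpl36. In control cells it gave -0.114 to 0.133 at H2bc4 and -0.0900 to 0.117 at Ndufs7. Interactions ran from -0.0282 to 0.101 at Lig3, -0.0134 to 0.405 at Mars2, -0.626 to 0.132 at Pam16 and -0.0800 to 0.178 at Nrf1. The cause was not tested.

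Each peak list comes from 1 sample of unknown depth, so an absent day 7 peak cannot be told from one below the cut-off, and the low scores of most day 0-only peaks limit what the lists can show.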
